A study of Mus musculus with 6 samples.

Results

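The genes of the mouse major histocompatibility complex (MHC, called H2 in the mouse) and 7 genes of the same pathway were compared in LSK cells of the bone marrow with and without miR-21. LSK stands for Lineage-, Sca1+ and c-Kit+, a sorted population of hematopoietic stem cells and multipotent progenitors. The genes were taken by name: every probe set that the platform annotation gives to 1 gene with a symbol that begins with H2-, plus Cd74, B2m, Ciita, Nlrc5, Tap1, Tap2 and Tapbp. This gave 43 genes, each with 1 probe set, of 30743 genes named on the array. A further 10 probe sets name a gene of this kind together with another gene and are described apart from the 43, among them those of Nlrc5 and Cd74.

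The knockout group was miR-21flox/flox:Mx1-Cre+ mice (3 arrays) and the control group miR-21flox/flox:Mx1-Cre- littermates (3 arrays). Both groups carry the floxed alleles, and mice of both were given pIpC at an age of 4 to 6 weeks (7 injections of 250 µg), with cells taken 4 weeks later. As a mimic of double-stranded RNA, pIpC induces interferon, which drives the Mx1 promoter in blood cells and in other tissues that respond to interferon. Cre is present only in the knockout group, so effects of Cre and of miR-21 loss cannot be told apart. The labels do not say whether 1 mouse or a pool stands behind each biological replicate, and the p-values cover the spread between these arrays alone.

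MHC class I molecules are a heavy chain paired with beta-2-microglobulin (B2m), and they show peptides from inside the cell to CD8 T cells and to natural killer cells. The peptides are cut by the proteasome, pumped into the endoplasmic reticulum by Tap1 and Tap2 and loaded with the help of tapasin (Tapbp). Class II molecules are an alpha and a beta chain, held at first by the invariant chain Cd74, and they show peptides from the endosome to CD4 T cells. H2-DM exchanges the peptides and H2-O restrains H2-DM. Nlrc5 and Ciita are the coactivators of the class I and class II promoters, and the gamma type of interferon is known to raise both classes. Stem and progenitor cells carry class I on the surface, while abundant class II is best known from B cells, dendritic cells and macrophages.

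The promoters of the genes that the results turn on are shown first, because the heavy chain genes resemble each other there as well as in their coding parts. In RefSeq (GRCm38.p6), 30 of the 43 genes had a promoter window of 300 bases, 250 before and 50 after the start. So did 5 further genes named on shared probe sets. In the class I promoters below, capitals mark the NF-kB type site of enhancer A (the first run of 10 capitals, a variant of it in H2-Q4) and the CCAAT boxes, which are bound by NF-Y and read ATTGG on the other strand. They stand at chr17:34000334-34000468 (minus strand, H2-K1), chr17:35262913-35263055 (plus, H2-D1), chr17:35379434-35379576 (plus, H2-Q4), chr17:35424667-35424809 (plus, H2-Q6) and chr17:35439012-35439153 (plus, H2-Q7).
H2-K1: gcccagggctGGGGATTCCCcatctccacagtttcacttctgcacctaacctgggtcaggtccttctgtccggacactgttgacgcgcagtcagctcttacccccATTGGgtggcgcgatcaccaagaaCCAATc
H2-D1: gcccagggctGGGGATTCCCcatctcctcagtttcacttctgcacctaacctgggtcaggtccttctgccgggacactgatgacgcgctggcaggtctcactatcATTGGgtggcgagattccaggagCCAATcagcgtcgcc
H2-Q4: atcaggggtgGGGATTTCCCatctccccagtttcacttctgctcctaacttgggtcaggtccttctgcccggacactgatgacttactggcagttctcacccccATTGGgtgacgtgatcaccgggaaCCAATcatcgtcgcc
H2-Q6: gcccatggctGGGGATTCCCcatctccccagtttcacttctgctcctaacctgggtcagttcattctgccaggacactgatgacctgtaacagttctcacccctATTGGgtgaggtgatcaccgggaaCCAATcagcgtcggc
H2-Q7: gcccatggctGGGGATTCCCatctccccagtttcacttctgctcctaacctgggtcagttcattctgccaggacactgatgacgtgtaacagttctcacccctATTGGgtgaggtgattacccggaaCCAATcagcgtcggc

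In these 5 genes a stretch of 110 bases from the kB site on was 82.1% to 96.4% identical between pairs, and highest for H2-Q6 and H2-Q7. The kB letters of H2-K1 were in 0.107% of all 32851 promoter windows of the table on either strand, and in those of 4 of the 35 genes here. The variant of H2-Q4, searched for after the windows had been read, was in 0.0944% of all windows and in no other of the 35. As a commoner motif, CCAAT was in 37.4% of all windows and in 32 of the 35 genes. The interferon response core (GAAA, any 2 bases, GAAA) was in 3.44% of all windows and, here, in B2m, H2-T22 and H2-T23. A match is a description of the letters, not a measured site. For these motifs and those below, the shares of all are counted by window. A gene here counts if any of its windows matched, so the shares are not in the same unit.

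The class II promoters of H2-Eb1 and H2-Ob are shown because these genes had the largest rise and the largest fall among the 43. Capitals mark part of the X box (the first run of 11 capitals), which RFX binds, and the CCAAT letters downstream of it. These are marked on either strand (CCAAT or ATTGG) and occur more than once in H2-Eb1. H2-Eb1 stands at chr17:34305766-34305846 (plus) and H2-Ob at chr17:34238808-34238862 (plus).
H2-Eb1: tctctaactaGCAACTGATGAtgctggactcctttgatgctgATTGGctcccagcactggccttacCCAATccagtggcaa
H2-Ob: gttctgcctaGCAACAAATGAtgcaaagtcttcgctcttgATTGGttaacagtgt

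These X box letters, with any base at the 2 positions where the genes differ and searched for after the windows had been read, were in 0.18% of all windows and in H2-Eb1 and H2-Ob alone of the 35 genes. The related letters AGCAACNG were in 5.14% of all windows and in H2-Eb1, H2-Eb2 and H2-M3, where the match in H2-Eb1 overlaps the one shown.

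Values are on a log2 scale. A change is the mean of the knockout arrays minus the mean of the control arrays, tested with limma and adjusted by Benjamini-Hochberg over all genes tested. Genes with a mean under 1.92, the median of all probe sets, were called dim and left out of the test. Of the 43 genes, 32 were above that level and 11 were dim. Arrays correlated at 0.995 to 0.997 within a group and at 0.987 to 0.991 between groups, and array medians lay between 1.89 and 1.95. Among all 19088 genes tested, 31.1% passed an adjusted p of 0.05, 19.1% higher and 12.0% lower in the knockout. Of the 32 MHC genes, 8 passed, 4 higher and 4 lower, which is no larger a share than that background. The groups of values did not overlap for 13 of the 32, against 48.0% of all genes tested. The median change of the 32 was 0.01, and that of all genes tested 0.07.

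By class, 1 of 2 classical class I genes passed (lower), 1 of 12 non-classical class I genes (lower), and 3 of 11 class II genes (2 higher, 1 lower). The median changes were -0.18, 0.01 and 0.08. The class I helpers B2m, Tap1, Tap2 and Tapbp had 1 higher and 3 that did not pass, and Ciita was higher. Of the 2 remaining H2- symbols, the pseudogene H2-K2 was lower, and H2-Ke6, an enzyme gene of the region and no MHC chain, did not pass (-0.06). The class medians were not tested against each other.

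**Figure D1:**
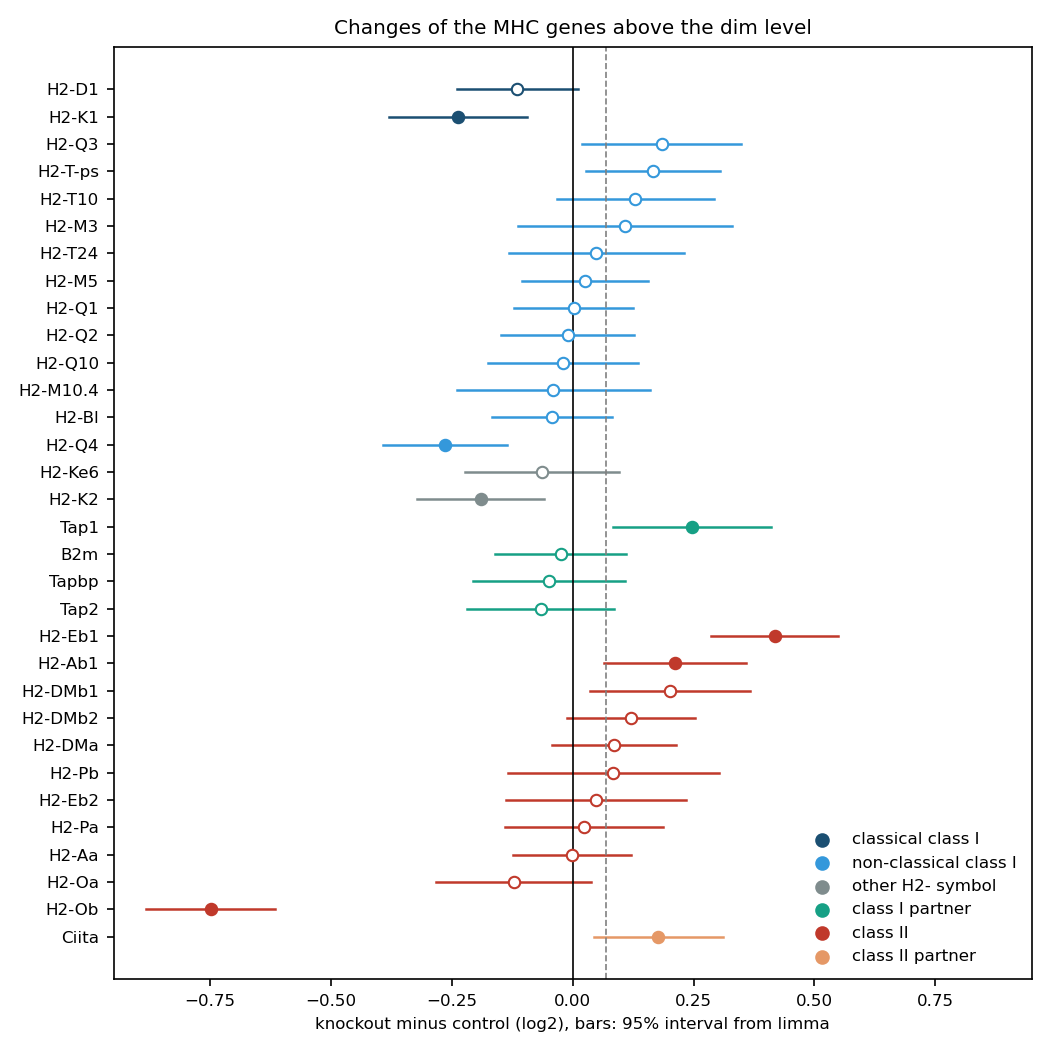
Change of each of the 32 MHC genes above the dim level, knockout minus control in log2 units on the horizontal axis, coloured by class; bars are 95% intervals from limma, filled points passed an adjusted p of 0.05, and the dashed line is the median of all genes (0.07). H2-Ob at -0.75 and H2-Eb1 at 0.42 stand at the 2 ends, and most class I genes lie near 0.

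Among the classical class I genes, which encode the heavy chains that present peptide to CD8 T cells, H2-K1 fell in the knockout. It read 8.83, 8.79 and 8.83 on the knockout arrays and 9.15, 8.99 and 9.02 on the control arrays. All knockout arrays were under all control arrays, and control replicate 1 was the highest. The change was -0.24 ± 0.06 (SE, 1.18-fold lower, limma adjusted p = 0.0209). This call was lost without any of the 3 knockout arrays or without control replicate 1, with changes of -0.24 to -0.19 and adjusted p of 0.0530 to 0.0595. Over all 15 alternatives its adjusted p lay between 0.00792 and 0.0595.

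H2-D1, the other classical heavy chain, read 8.26, 8.26 and 8.24 in the knockout and 8.42, 8.35 and 8.34 in control. Its groups did not overlap either, but the change of -0.12 did not pass (adjusted p = 0.144, 95% interval -0.24 to 0.01). With a second quantile normalization it was at -0.22, past the threshold (adjusted p = 0.0186; range over the alternatives 0.0186 to 0.306). The probe set of H2-D1 carries the Entrez numbers of 2 genes under this symbol, so that the RNA of a close relative may be part of its value.

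The transcribed pseudogene H2-K2, next to H2-K1 on chromosome 17, moved the same way. Its values were 5.41, 5.50 and 5.46 in the knockout and 5.69, 5.60 and 5.65 in control, without overlap. The change was -0.19 ± 0.06 (SE, limma adjusted p = 0.0353). It passed in 8 of 15 alternatives (adjusted p 0.0206 to 0.125) and was lost without any array except knockout replicate 2. Because near-identical heavy chain genes can bind each other's probes, the falls of H2-K1, H2-K2 and the Q genes cannot be counted as separate events.

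The light chain gene showed no change that passed. B2m read 9.73, 9.68 and 9.74 in the knockout and 9.82, 9.68 and 9.73 in control, so that the groups overlapped. The change was -0.03 (adjusted p = 0.770), with a 95% interval of -0.16 to 0.11.

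Of the peptide transporter genes, Tap1 passed and Tap2 did not. Tap1 rose, from 6.97, 6.99 and 6.77 in control to 7.12, 7.18 and 7.17 in the knockout, a change of 0.25 ± 0.07 (SE, 1.19-fold, limma adjusted p = 0.0305). No knockout value reached down to the control values, of which replicate 3 was the lowest. The call was lost without that array (0.17, adjusted p = 0.0738) and without any knockout array, and also after centring each array on its median (adjusted p = 0.0506; range 0.0216 to 0.0841). Tap2, its partner, was at 6.69, 6.65 and 6.66 in the knockout and 6.86, 6.67 and 6.67 in control. That change of -0.07 did not pass (adjusted p = 0.475, 95% interval -0.22 to 0.09), and the same held for tapasin (Tapbp, -0.05, adjusted p = 0.608, -0.21 to 0.11). The difference between Tap1 and Tap2 was not itself tested.

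Nlrc5, the class I coactivator, shares its probe set with the microRNA gene Mir7072 that the annotation places with it. The probe set read 5.54, 5.55 and 5.51 in the knockout and 5.65, 5.76 and 5.56 in control. When all 32985 probe sets over the dim threshold were fitted, the change was -0.12, which did not pass (adjusted p = 0.242, 95% interval -0.29 to 0.04).

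Non-classical class I genes lie in the Q, T and M groups of the same region, and encode heavy chains with narrower or different tasks. Among the 5 Q genes with a probe set of their own, H2-Q4 fell. Its values were 5.68, 5.69 and 5.75 in the knockout and 6.01, 5.97 and 5.93 in control, with no overlap and little spread. The change was -0.26 ± 0.06 (SE, limma adjusted p = 0.00845), and it passed in all 15 alternatives (adjusted p 0.00575 to 0.0360). H2-Q1 (0.00), H2-Q2 (-0.01), H2-Q10 (-0.02) and the pseudogene H2-Q3 (0.18, adjusted p = 0.0855) did not pass.

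The genes H2-Q6 to H2-Q9, which encode the Qa-2 antigen, are so alike that their probe sets name more than 1 gene. All 3 of these probe sets that name H2-Q6, H2-Q7, H2-Q8 or H2-Q9 were lower in the knockout, in the fit over probe sets, where 24.9% of all passed and 13.4% passed as lower. The probe set of H2-Q8 and H2-Q6 read 7.71, 7.76 and 7.70 in the knockout against 8.21, 8.20 and 8.07 in control (-0.44 ± 0.07 SE, 1.35-fold lower, limma adjusted p = 0.00321). For H2-Q7 and H2-Q9 the values were 7.69, 7.69 and 7.75 against 8.07, 8.01 and 7.98 (-0.31, adjusted p = 0.00888). For H2-Q5 and H2-Q7 they were 7.97, 7.95 and 7.99 against 8.33, 8.26 and 8.19 (-0.29, adjusted p = 0.0133). The groups did not overlap in any of the 3, where 48.0% of all genes tested had no overlap either. Each of the 3 passed in all 13 alternatives it was run under. The remaining Q probe set, of H2-Q5 and the gene Gm10499, was at -0.03 and did not pass. RNA from any of these genes, or from H2-K1 and H2-D1, may add to each value.

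**Figure D2:**
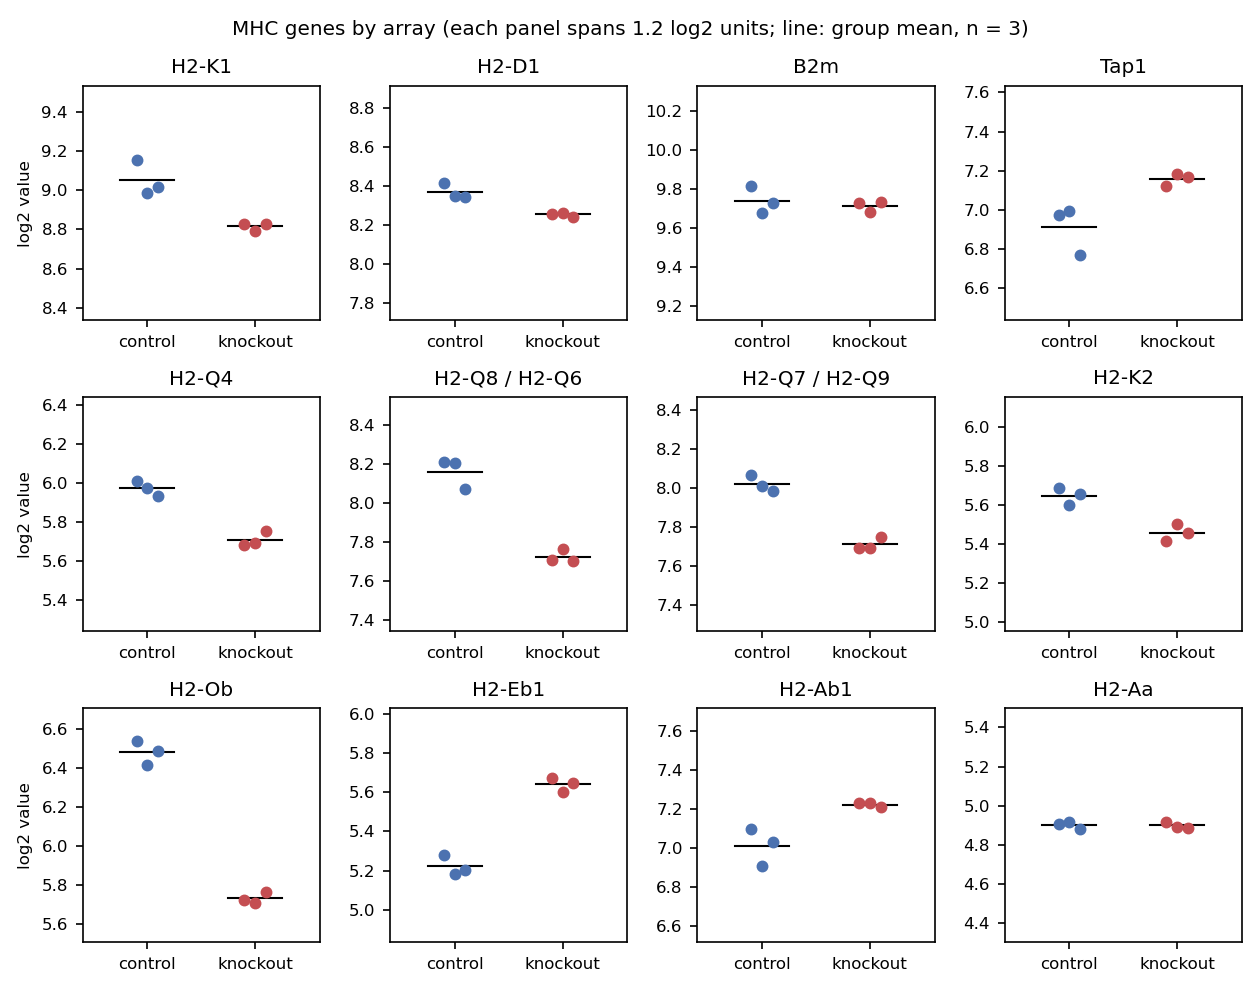
log2 value on each array for 12 MHC genes or shared probe sets, control in blue and knockout in red, with the group mean as a line; every panel spans 1.2 log2 units on its own scale. H2-Ob and H2-Q8 / H2-Q6 are clearly lower and H2-Eb1 higher in the knockout, whereas B2m and H2-Aa overlap.

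The T genes had small positive or near-zero differences. H2-T-ps (annotated as C920025E04Rik) was at 0.17 with no overlap of its groups (adjusted p = 0.0682), H2-T10 at 0.13 (0.197), H2-T24 at 0.05 (0.663) and H2-Bl at -0.04 (0.569), so 0 of 4 passed. The groups of H2-Bl did not overlap either, with all knockout arrays below the control arrays. That made 2 of 4 without overlap, against 48.0% of all genes tested, whose median change was 0.07. At an unadjusted p under 0.05, H2-T-ps alone of the 4 would have passed. It also passed in 3 of 15 alternatives, with a second quantile normalization (adjusted p = 0.0341), array weights (0.0488) and the replicate number as a block (0.0476). H2-T23 encodes Qa-1, which shows peptides of other class I chains to natural killer receptors. Its probe set, shared with C920025E04Rik, read 6.02, 5.92 and 6.07 in the knockout and 5.98, 5.76 and 5.91 in control (0.12, adjusted p = 0.317). That of H2-T22 and H2-T9 was at 0.11 (adjusted p = 0.202), with all knockout arrays above the control arrays. That of Gm7030 and H2-T9 was at 0.06 (0.578), with overlap.

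Of the 13 M genes, 10 were dim. H2-M3, which presents formylated peptides of bacteria and mitochondria, was measured well: 4.84, 4.83 and 4.96 in the knockout and 4.99, 4.59 and 4.72 in control. Its control arrays spread more widely than the difference of 0.11 (adjusted p = 0.423, 95% interval -0.11 to 0.33). H2-M10.4 (-0.04) and H2-M5 (0.03) lay just above the dim level.

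The dim M genes were H2-M1, H2-M2, H2-M9, H2-M11, H2-M6-ps, H2-M10.1, H2-M10.2, H2-M10.3, H2-M10.5 and H2-M10.6, with means between 1.03 and 1.91. The M10 genes are best known from pheromone-sensing neurons. The class II pseudogene H2-Ea was dim too, at 1.49, as was the probe set of H2-T3 and H2-T18 (1.30 in both groups). Fitted with no filter on dim genes, where 17.8% of all 30743 genes passed, none of the 11 dim genes passed; the lowest adjusted p in limma was 0.182. Close to the level of 1.92, H2-Eb2 at 1.93 and H2-M5 at 1.95 were kept and H2-M10.5 at 1.91 was not.

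Class II genes moved in both directions. H2-Ob, the beta chain of H2-O, had the largest change of all 43 genes. It read 5.73, 5.71 and 5.77 on the knockout arrays and 6.54, 6.42 and 6.49 on the control arrays, a gap many times the spread within either group. The change was -0.75 ± 0.06 (SE, 1.68-fold lower, limma adjusted p = 3.59e-05), at rank 271 of 19088 genes from the lowest change. It passed in all 15 alternatives, at -0.78 to -0.72.

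H2-Oa, the alpha chain of the same dimer, was at 5.06, 5.08 and 4.98 in the knockout and 5.29, 5.14 and 5.07 in control. The groups overlapped and the change of -0.12 did not pass (adjusted p = 0.215, 95% interval -0.28 to 0.04). That interval does not reach the change of H2-Ob, but the difference between H2-Oa and H2-Ob was not itself tested.

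H2-Eb1, the beta chain of the I-E molecule, had the largest rise. Its values were 5.67, 5.60 and 5.65 in the knockout and 5.28, 5.18 and 5.20 in control. The change was 0.42 ± 0.06 (SE, 1.34-fold, limma adjusted p = 0.00100), and it passed in all 15 alternatives (adjusted p 4.09e-04 to 0.00593). Its alpha chain gene H2-Ea is a transcribed pseudogene in the RefSeq strain, C57BL/6J, and was dim here.

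The I-A molecule is made of H2-Aa and H2-Ab1. H2-Ab1 rose from 7.10, 6.91 and 7.03 to 7.23, 7.23 and 7.21, a change of 0.21 ± 0.06 (SE, 1.16-fold, limma adjusted p = 0.0351). The knockout arrays were all above the control arrays. The call was lost in 7 of 15 alternatives (adjusted p 0.0215 to 0.116): without any array other than control replicate 1, after centring each array on its median, and in the fit over probe sets. H2-Aa showed no such change, with 4.92, 4.89 and 4.89 in the knockout and 4.90, 4.92 and 4.88 in control (0.00, adjusted p = 0.990, 95% interval -0.12 to 0.12).

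The H2-DM chain genes had changes above 0, and none of the 3 passed. H2-DMa was at 0.09 (adjusted p = 0.280), H2-DMb2 at 0.12 (0.149) and H2-DMb1 at 0.20 (0.0650). H2-DMb1 read 6.30, 6.20 and 6.34 in the knockout and 6.21, 5.99 and 6.05 in control, so that control replicate 1 lay within the knockout range. It passed in 5 of 15 alternatives (adjusted p 0.0215 to 0.188): without that array (0.26, adjusted p = 0.0276), with a stricter filter, a second quantile normalization, array weights and the replicate number as a block. H2-Eb2 and the pseudogenes H2-Pa and H2-Pb were at 0.05, 0.02 and 0.08.

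The class II coactivator Ciita rose slightly, from 2.79, 2.72 and 2.67 to 2.90, 2.89 and 2.93. The change was 0.18 ± 0.06 (SE, limma adjusted p = 0.0473), and the groups did not overlap. The gene lay not far above the dim level, and its call was lost in 9 of 14 alternatives (adjusted p 0.0301 to 0.130), among them the fit with no filter (0.0598) and those without any array other than control replicate 1.

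Cd74, the invariant chain, shares its probe set with the microRNA gene Mir5107. The probe set read 6.95, 6.97 and 6.92 in the knockout and 7.06, 7.15 and 6.99 in control. All knockout values were the lower ones, but the change of -0.12 did not pass (adjusted p = 0.217, 95% interval -0.27 to 0.03). Its difference from H2-Eb1 and H2-Ab1 was not tested.

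**Figure D3:**
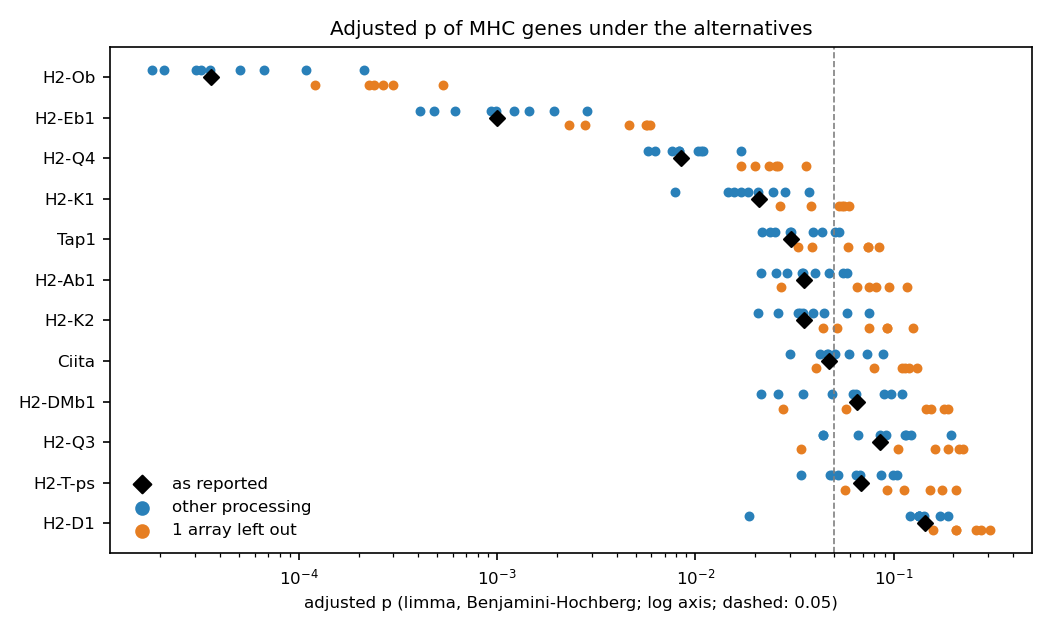
Adjusted p of 12 MHC genes on a log axis, as reported (black diamonds), with other processing (blue) and with 1 array left out (orange); the dashed line is 0.05. H2-Ob, H2-Eb1 and H2-Q4 stay left of the line throughout, while H2-K1, Tap1, H2-Ab1, H2-K2 and Ciita fall on both sides of it.

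The genes that process peptides for class I were taken as a list of 16. The median change of the 14 above the dim level was 0.06, with 3 higher, 3 lower and 8 short of the threshold. Among all genes tested 19.1% were higher and 12.0% lower, with a median of 0.07. The chaperone calreticulin (Calr, 0.36) and the immunoproteasome subunit Psmb8 (0.29 ± 0.06 SE, limma adjusted p = 0.00588) rose. The chaperone Hspa5 (-0.36) and the proteasome activator subunit Psme3 (-0.26) fell. Psmb9, chosen here after its value was seen because it is the neighbour of Tap1, rose by 0.32 (adjusted p = 0.0258).

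In the class II processing list the median was 0.27, and 6 of the 10 genes tested rose while none of the other 4 passed. Of all genes tested 19.1% rose, with a median of 0.07. The thiol reductase Ifi30, which opens disulfide bonds of proteins in the endosome, went from 4.54, 4.28 and 4.44 in control to 5.39, 5.27 and 5.36 in the knockout (0.92 ± 0.08 SE, limma adjusted p = 5.28e-05). The protease gene Ctsz rose by 0.85, the protease inhibitor gene Cst3 by 0.30 and the tetraspanin gene Cd9 by 0.31.

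The 15 transcription factors of MHC genes had a median of -0.11, with 1 higher and 5 lower. For all genes tested the median was 0.07, with 19.1% higher and 12.0% lower. Irf8, a factor of dendritic cells and monocytes, rose by 0.70 (adjusted p = 6.36e-05). The X box factor Rfx5 fell from 5.05, 5.06 and 4.98 to 4.73, 4.76 and 4.76 (-0.28 ± 0.06 SE, limma adjusted p = 0.00581). The coactivators Crebbp (-0.60) and Zxdc (-0.41) fell as well, and the RFX subunits Rfxank and Rfxap were at 0.00 and 0.02. Of 9 interferon receptors and relays, 2 rose and 2 fell (median 0.01): Stat2 (0.33) and Ifnar2 (0.21) were higher, Jak1 (-0.35) and Ifngr1 (-0.27) lower.

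Markers of the cells best known for class II were looked at beside these results. As a background for the counts, 19.1% of all genes tested rose and 12.0% fell. Of the LSK markers, 8 had a probe set of their own and all were above the dim level, Kit, Flt3 and Cd34 among them. However, 6 of these 8 fell in the knockout, 1 rose and 1 did not pass (median -0.46), with summed log2 levels of 50.9 to 51.4 in the knockout and 53.2 to 53.7 in control. Ly6a, the Sca-1 gene, was not named on a probe set of its own. Of 11 monocyte and macrophage markers, 4 of the 8 above the dim level rose, among them Csf1r (0.67). Another of the 4, Ccr2, had a control mean of 1.83, under the dim level, and passed the filter only through the knockout group (mean 2.99). Adgre1, Mrc1 and Fcgr1 were dim. The summed log2 level of the 11 was 36.5 to 37.1 in the knockout and 33.0 to 34.3 in control. This sum includes the dim genes and Ccr2, whose change of 1.16 was the largest of the 11. For dendritic cells, 1 of 7 rose (Clec10a, 0.71), 1 fell (Tcf4, -0.41), and Zbtb46, Xcr1, Clec9a, Cd209a and Ccr9 were dim, with sums of 41.1 to 41.2 and 39.3 to 40.5. Clec9a was dim by its mean over all arrays. Its mean was 2.076 in the knockout, above the dim level, and 1.585 in control, under it. The remaining dim ones of this list were under the level in both groups. For B cells, 1 of 5 rose (Cd79b, 0.26), 1 fell (Ebf1, -0.19), and Ms4a1, Cd22, Fcer2a and Cr2 were dim, with overlapping sums of 23.6 to 23.9 and 23.4 to 24.0. The part of these cells, and of the LSK markers' fall, in the changes of the MHC genes was not tested. The sort kept cells negative for lineage markers, a gate meant to remove mature blood cells. In a sorted bulk sample, fewer cells of a type and less RNA per cell cannot be told apart.

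Along chromosome 17, in the gene order of RefSeq, genes that fell stood at several places. H2-K2 and H2-K1 are neighbours at the near end, H2-Ob lies between Tap2, which did not pass, and H2-Ab1, which rose, and H2-Q4 and the 3 lower Q probe sets follow H2-D1. Whether lower genes cluster was not tested. Of 53 other listed genes of the region above the dim level, 9 were higher and 7 lower in the knockout, a share near the 31.1% of all genes, and the median was 0.07, as for all genes. The largest of these changes by p were falls of the cytokine genes Ltb (-1.04) and Tnf (-1.05) and of the GABA receptor gene Gabbr1 (-0.77), and a rise of the RNA-binding Lsm2 (0.37).

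**Figure D4:**
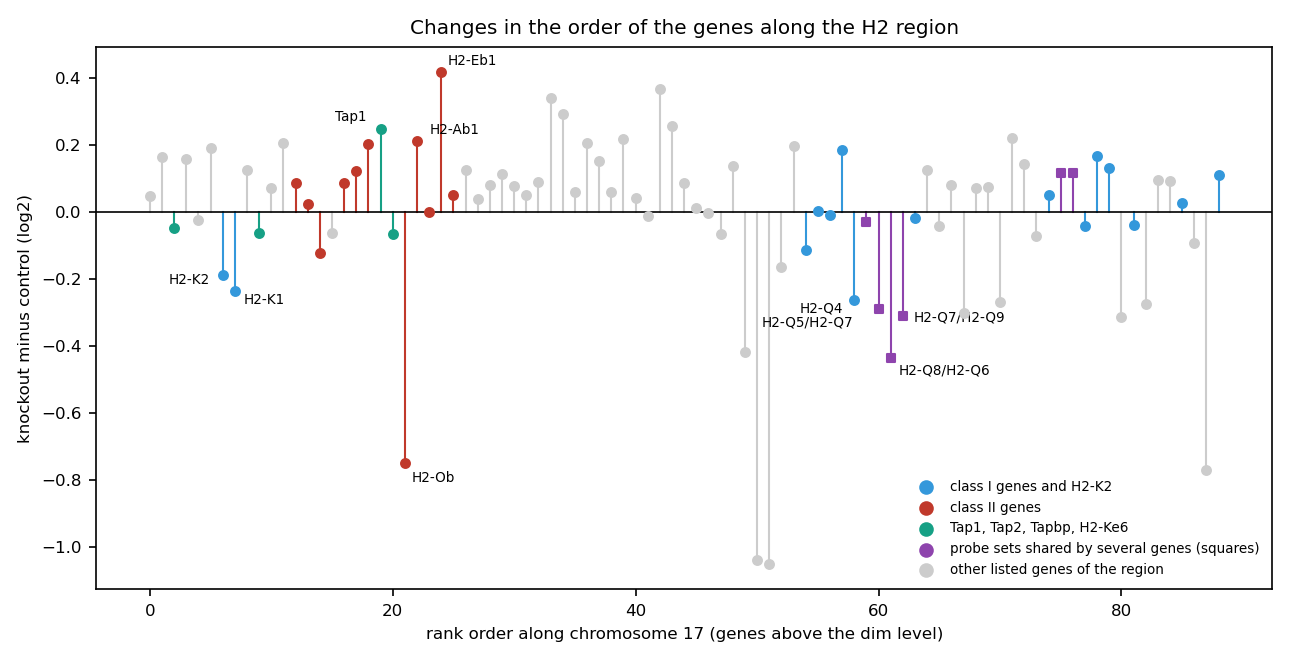
Change of MHC genes, shared probe sets (squares) and other listed genes above the dim level (grey), knockout minus control in log2 units, in their order along chromosome 17. H2-Ob at -0.75 stands between neighbours near or above 0, 3 of the 4 shared Q probe sets lie at -0.29 to -0.44 and the remaining one at -0.03, and the 2 longest grey lines are Ltb and Tnf.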

How the data were processed

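Total RNA of LSK cells (250 ng per array) was measured on 6 Affymetrix arrays, 3 per group. The log2 values of each array are those the authors deposited; the submitters' processing notes name RMA. The log base was read as 2 from the range (up to 11.5), and the version and genome build are not given in the sources used here. RMA as a method forces the same distribution of single probe values on all arrays, so a change shared by most transcripts would have been removed. The deposited values, which combine the probes of a set, still had array medians from 1.89 to 1.95. Arrays have no depth, and their number limits the precision.

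Genes were named through GEO's platform annotation, with symbols updated by Entrez number through RefSeq (GRCm38.p6). Of 65956 probe sets, 31216 named 1 gene (612 of them under several aliases), 1534 several and 33206 were not listed. Probe sets counted as naming several genes lent their name to none of the 43. A probe set with 1 symbol but several Entrez numbers, such as that of H2-D1, was counted as naming 1 gene. Of genes with several probe sets (364 symbols) the brightest was used. Genes with a mean under 1.92 were dim and left out (11655), which kept 19088. The test was limma's moderated one (version 3.58.1, R 4.3.3, two-sided), adjusted by Benjamini-Hochberg over the genes kept, with a threshold of 0.05. Intervals are limma's 95% intervals. An exact permutation test of 3 arrays against 3 cannot go below 0.1, so it was not used for calls. Shared probe sets were tested in a separate model of the 32985 bright enough probe sets. Figures were drawn with Python 3.11.15 and matplotlib 3.10.9.

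Named genes are all members and up to 4 genes by p of each related list. Psmb9, Rfxank, Rfxap and all class I-like genes above the dim level are named beyond this rule. The value on every array is given for any member that passed and for most classical and class II chains and their helpers. H2-DMa, H2-DMb2, H2-Ea, H2-Eb2, H2-Pa, H2-Pb and Tapbp are given by their change or mean alone. H2-Pb was put in class II by its symbol. The members, lists and alternatives were chosen with earlier results of these data known. On simulated data for this comparison (19088 genes), 99.0% of changes of 1 log2 unit and 71.0% of changes of 0.5 were recovered. The simulation changed only 200 genes, a far smaller share than the 31.1% that passed here. The adjustment depends on that share, so the recovery in the real data may differ.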

Additional observations from a re-analysis of the deposited data

Results flagged for a closer look

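The 3 probe sets below carry a signal outside the 43 genes compared, because the annotation gives each of them several genes. The probe set of H2-Q8 and H2-Q6 was at -0.44 (knockout minus control, log2), that of H2-Q7 and H2-Q9 at -0.31 and that of H2-Q5 and H2-Q7 at -0.29. Each was lower on 3 of 3 knockout arrays than on any control array. Among all genes tested, 48.0% had groups that did not overlap, in either direction, and this share was not computed for probe sets.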

How the results depend on the processing

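H2-Ob, H2-Eb1 and H2-Q4 passed in all 15 alternatives run, and no called change of the 43 genes changed sign. Of the 8 genes that passed, 4 did so in the fit over all probe sets and 5 after centring each array on its median. Without knockout replicate 1 or 3, 3 of the 8 passed. It was 4 without knockout replicate 2 or control replicate 3, 5 without control replicate 2 and 6 without control replicate 1. H2-Q3 was gained without knockout replicate 1 and H2-DMb1 without control replicate 1. A second quantile normalization gave 12 passing genes, of which 7 were among the 8. The classical class I median was then -0.27 in place of -0.18. With 1 array left out the class II median was 0.012 to 0.11, the lowest without control replicate 3. The other class medians moved by less than the spread between arrays, as did the non-classical median with shared Q and T probe sets added after seeing the data (0.00). With the replicate number as a block, 11 genes passed (7 higher, 4 lower), the 8 among them, and 7211 of all genes in place of 5944. The deviations of same-numbered arrays correlated at 0.22, 0.33 and 0.10, and 5 of 6 arrays correlated best with their own number. The last of these correlations was under the level of 0.1 before rounding, and the main fit did not take the numbers as pairs. These values do not exclude pairing, and the fit with a block gives the calls under it. Most differences here are under 0.5 log2 units, the smaller size tried in the test on simulated data, so a gene that did not pass may still differ.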

Other observations

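Class I-like genes outside the H2 symbols were also on the array, 11 of 18 listed genes with a probe set of their own and 8 of them above the dim level. Hfe, the iron regulator that pairs with B2m, read 3.77, 3.89 and 3.90 in the knockout and 3.42, 3.22 and 3.21 in control, a rise of 0.57 ± 0.08 (SE, 1.49-fold, limma adjusted p = 7.44e-04). Procr, a protein C receptor with a class I-like fold that marks stem cells, fell by 0.46 (adjusted p = 0.00854). The lipid-presenting Cd1d1 (-0.16) and Cd1d2 (-0.14), the metabolite-presenting Mr1 (-0.22), the stress ligand Ulbp1 (-0.11), Mill2 (-0.05) and the neonatal Fc receptor Fcgrt (0.01) did not pass. The median of the 8 was -0.12, against 0.07 for all genes tested.

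Natural killer and T cell markers were read because these cells see class I. Here too the background is 19.1% of all genes tested that rose and 12.0% that fell. Of the natural killer markers, Nkg7 (0.53) and Il2rb (0.48) rose. Klrb1c was at 0.55, but its control mean of 1.85 was under the dim level and it passed the filter only through the knockout group, while Ncr1, Klrd1 and Eomes were dim. Ncr1 had a knockout mean of 2.05, above the dim level, and a control mean of 1.79, under it. Klrd1 and Eomes were under it in both groups. The mean log2 level of these 6 markers was 3.25 to 3.36 on the knockout arrays and 3.01 to 3.07 on the control arrays. Of 6 T cell markers above the dim level, Thy1 rose (0.23), Il7r fell (-0.31) and 4 did not pass, and Cd3d and Cd3g were dim. Nkg7 and Il2rb are also known from other blood cells, and the part of natural killer cells was not tested.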
